A study of Rattus norvegicus with 15 samples.

Results

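Fos, Jun, Egr1 and Atf3 are immediate-early transcription factor genes, here followed as 4 of the 32545 rat genes counted in Rat1a cells. The 4 rows were taken by Ensembl identifier (Fos ENSRNOG00000008015, Jun ENSRNOG00000026293, Egr1 ENSRNOG00000019422, Atf3 ENSRNOG00000003745) in each count table. All 4 were among the 13676 genes that passed the filter on low counts. Rat1a is an established rat fibroblast line, although the labels call its cell type normal primary fibroblasts. Of the compared lines, 3 expressed mouse MYC with a lysine changed to arginine, which are called R149 (K149R), R158 (K158R) and R323 (K323R). A further line expressed unchanged mouse MYC (WT), and the control line held the empty vector (EV). Each of the 5 lines gave 3 libraries of polyadenylated RNA. Every construct stood in 1 stable line, and the labels do not say whether it was a clone or a pool. Construct and line therefore cannot be told apart, and the p-values measure the spread between cultures of a line. All lines grew attached in high-glucose medium with 10% fetal bovine serum, and the labels name no serum withdrawal or stimulation before harvest.

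Immediate-early genes are the first to be transcribed when a growth factor or a stress reaches a cell, since their induction needs no new protein. Their transcripts are short-lived, so their level in growing cultures follows the recent state of the culture. Serum response factor with its partners, and the factors that bind cyclic AMP response elements, are the known activators of Fos and Egr1, while Jun activates its own promoter. Fos pairs with Jun through leucine zippers to form AP-1, a dimer that binds TGACTCA, and Atf3 is a related zipper protein known for its induction by stress. Egr1 is a zinc finger protein that binds GC-rich sites. Myc itself is an immediate-early gene in fibroblasts, but here mouse MYC was introduced into stable lines.

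The promoter of Egr1 is shown because it was the only promoter of the 4 genes available. This class of genes is known for its serum response elements. RefSeq's promoter table for build GRCr8, a later build than the Rnor_6.0 of the counts, held 1 of the 4 genes by symbol. The stretch runs from 250 bases before to 50 bases from the start of the gene, on the plus strand at chr18:26736828-26737127, and the capitals mark CArG boxes, the core of the serum response element.
Egr1: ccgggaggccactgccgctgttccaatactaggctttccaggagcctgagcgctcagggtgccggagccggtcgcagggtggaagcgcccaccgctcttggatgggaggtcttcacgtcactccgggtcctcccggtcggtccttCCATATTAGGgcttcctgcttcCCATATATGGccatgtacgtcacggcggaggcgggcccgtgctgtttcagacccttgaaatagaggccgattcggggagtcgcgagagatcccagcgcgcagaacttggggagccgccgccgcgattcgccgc
The 2 CArG boxes lie at bases -105 to -96 and -83 to -74 from the start and match on both strands. A CArG box was present in 1.64% of the 33469 rat promoters of the same length, and at least 2 were present in 0.0209%. The short site TGACG of the cyclic AMP response element matched on the minus strand at -135 to -131 and at -66 to -62, apart from the CArG boxes, and 21.2% of promoters held it. The full element TGACGTCA (1.83% of promoters), the AP-1 site TGACTCA (4.63%), the E-box CACGTG of MYC and MAX (6.42%), the EGR site GCGTGGGCG (0.544%) and TATAAA (14.2%) were not among these letters on either strand.

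Library totals ranged from 13303631 to 108933235 counts. R149 replicate 1 stood apart from the other libraries, with counts in 13955 genes against 15056 to 17848 in the rest. Levels are CPM, counts set to the same library total, after TMM scaling, which uses the trimmed mean of M values, and they are compared between lines for 1 gene, never between genes. Fos and Egr1 were read from few counts, 9 to 81 and 8 to 157 per library, while Jun had 660 to 4070 and Atf3 76 to 1090. The lowest count of Fos, 9 in WT replicate 3, has an exact 95% Poisson interval of 4.12 to 17.1 counts, and the lowest of Egr1, 8 in EV replicate 3, one of 3.45 to 15.8. These intervals cover counting error only.

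Against EV, the MYC lines had less Fos and more Atf3. Jun was called lower in the 3 mutant lines and Egr1 higher in R149. All 4 genes were called in R149 (edgeR quasi-likelihood test, Benjamini-Hochberg adjusted p below 0.05), where 38.5% of all genes were called. In R158, Fos, Jun and Atf3 were called, 3 of 4 against 28.5% of all genes, and the same 3 were called in R323, against 29.8%. In WT, Fos and Atf3 were called, 2 of 4 against 26.8%. The median log2 fold change of all genes lay between 0.002 and 0.0117 in these comparisons. The 4 comparisons share the EV libraries, so a high or low EV culture enters all of them. The libraries of Fos lay below EV without overlap in each line, as did 28%, 22.7%, 25.6% and 23% of all genes in R149, R158, R323 and WT. Those of Atf3 lay above EV without overlap in each line, as did 26.4%, 21.6%, 24.2% and 21.4% of all genes.

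**Figure D1:**
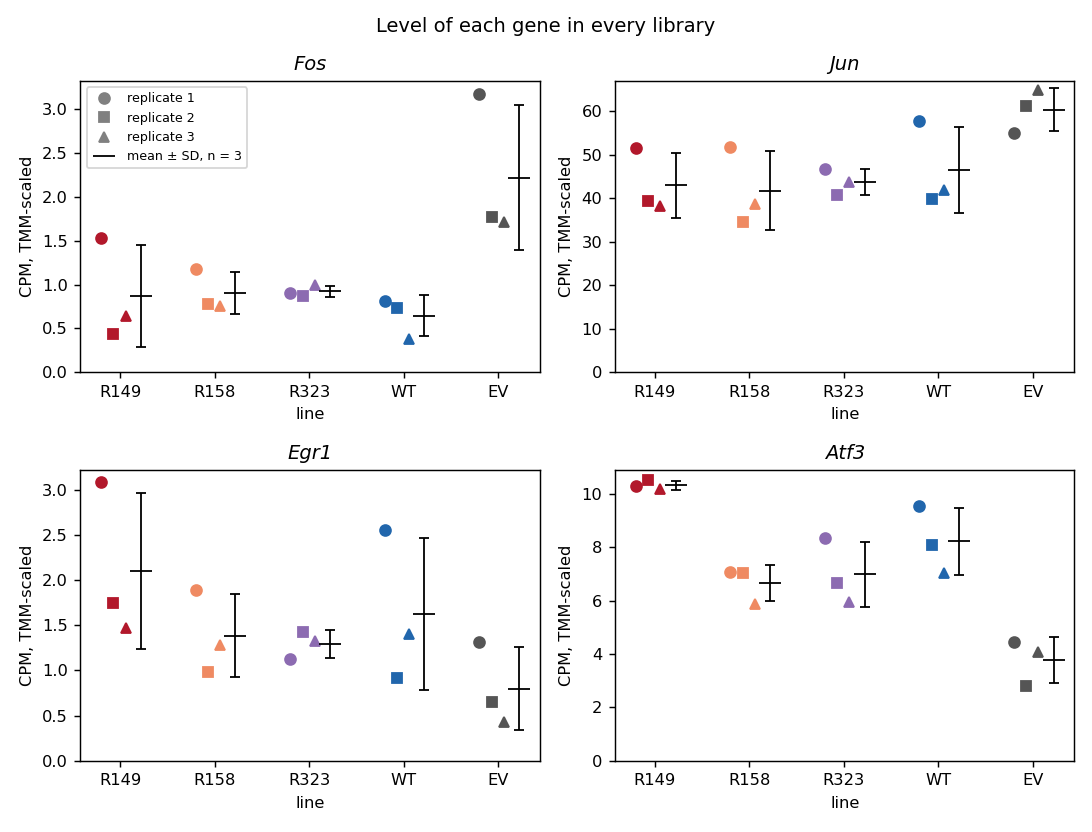
Level of Fos, Jun, Egr1 and Atf3 in each of the 15 libraries, in TMM-scaled CPM on a linear axis from 0, with points for libraries, symbols for replicate numbers and the mean ± SD (n = 3) of each line beside them. All 12 MYC libraries lie below the EV libraries for Fos and above them for Atf3, while Jun of WT replicate 1 (57.7 CPM) and several Egr1 values fall within the EV range.

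Fos, which binds DNA as the partner of a Jun protein, was lower in each MYC line. It stood at 1.53, 0.437 and 0.637 CPM in replicates 1, 2 and 3 of R149, 1.18, 0.776 and 0.756 CPM in R158, 0.902, 0.874 and 0.995 CPM in R323 and 0.816, 0.736 and 0.384 CPM in WT, against 3.18, 1.77 and 1.72 CPM in EV. The highest MYC library, R149 replicate 1, was still below the lowest EV library, so none of the 12 MYC libraries overlapped EV. EV replicate 1 was the high culture of its line and R149 replicate 1 that of R149.

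In R149, Fos averaged 0.867 ± 0.581 CPM, against 2.22 ± 0.830 CPM in EV (SD, n = 3). Its log2 fold change was -1.38 ± 0.43 (SE), and the edgeR adjusted p was 0.0191. In R158 the log2 fold change was -1.31 ± 0.46 (adjusted p 0.0419) and in R323 it was -1.26 ± 0.44 (adjusted p 0.0433). In WT it was -1.74 ± 0.45, with an adjusted p of 0.0097. On a linear scale these are falls by 2.6-fold in R149, 2.49-fold in R158, 2.39-fold in R323 and 3.34-fold in WT. Changes this low or lower were found in 6.67%, 4.12%, 5.89% and 2.19% of all genes in these 4 comparisons, in the same order of lines.

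The fall in WT was called in each of 22 alternatives, with an adjusted p of at most 0.0449. In R158 and R323 the call was lost without any 1 of 9 libraries in each comparison, among them all EV libraries and all libraries of the line itself, with the highest adjusted p, 0.149 and 0.172, without EV replicate 1. The other libraries whose removal ended the call were WT replicate 2 and R323 replicates 2 and 3 for R158 (adjusted p 0.051, 0.0525 and 0.0526), and WT replicate 2 and R158 replicates 2 and 3 for R323 (0.055, 0.0502 and 0.0532). In these fits the log2 fold change stayed between -1.53 and -0.98 for R158 and between -1.41 and -0.91 for R323. In R149 it was lost without EV replicate 1 (adjusted p 0.0908), R149 replicate 2 (0.0752) or R149 replicate 3 (0.0774), while without R149 replicate 1 the log2 fold change was -2.0 with an adjusted p of 0.000856. The R149 call was also lost in the fit of the 2 lines alone (0.0572), and the R158 call with limma-voom (0.051). The direction was the same in all 22 alternatives for each line.

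Jun, the AP-1 subunit that can pair with Fos or with itself, was lower by a smaller factor. Its level was 51.5, 39.3 and 38.1 CPM in the R149 cultures, 51.9, 34.5 and 38.8 CPM in R158, 46.7, 40.8 and 43.6 CPM in R323, and 57.7, 39.7 and 41.9 CPM in WT, against 55.1, 61.2 and 64.8 CPM in EV. WT replicate 1 was the only MYC library inside the EV range, and 11 of 12 lay below it. The mutant lines lay below EV without overlap, as did 28%, 22.7% and 25.6% of all genes in R149, R158 and R323. In each of the 4 MYC lines replicate 1 was the highest culture, as for 14.7% of all genes, while in EV replicate 1 was the lowest.

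Mean Jun was 43.0 ± 7.43 CPM in R149, 41.7 ± 9.06 in R158, 43.7 ± 2.98 in R323 and 46.5 ± 9.83 in WT, against 60.4 ± 4.94 in EV (SD, n = 3). The log2 fold changes were -0.49 ± 0.17 in R149 (edgeR adjusted p 0.0309), -0.54 ± 0.17 in R158 (0.0288), -0.47 ± 0.17 in R323 (0.0492) and -0.38 ± 0.17 in WT (0.113). These are falls by 1.41-fold, 1.45-fold and 1.38-fold in the mutants. Changes this low or lower were found in 21.9%, 16%, 19.9% and 22.1% of all genes in R149, R158, R323 and WT. WT was not called, but none of the mutants was called against WT either. Without WT replicate 1 the WT value was -0.56 with an adjusted p of 0.0309, and with replicates 2 and 3 alone it was -0.63 with an adjusted p of 0.000534. It was -0.27 without WT replicate 2 (adjusted p 0.338), -0.31 without WT replicate 3 (0.262) and -0.33 without EV replicate 3 (0.272). With the replicate number as a block, WT was called (-0.41, adjusted p 0.0222). That fit gave all lines a common effect per number, although replicate 1 was highest in the MYC lines and lowest in EV.

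The calls of Jun in R149 and R158 were each lost without EV replicate 2, EV replicate 3, or replicate 2 or 3 of the line (adjusted p 0.0772, 0.0943, 0.0924 and 0.11 for R149, and 0.074, 0.0948, 0.123 and 0.0754 for R158). In these fits the log2 fold change was -0.48 to -0.41 for R149 and -0.53 to -0.42 for R158. In R323, whose adjusted p lay just below the threshold, the call was lost in 11 of 15 fits with 1 library left out, with an adjusted p of up to 0.158 without R323 replicate 2. These were the fits without any 1 of the EV or R323 libraries, WT replicates 2 and 3, R149 replicates 2 and 3 and R158 replicate 3, and the log2 fold change stayed between -0.53 and -0.41.

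Egr1, an activator of growth and differentiation genes, was higher on average in each MYC line but passed the test in R149 and in none of the other lines. It was 3.08, 1.75 and 1.47 CPM in R149, 1.89, 0.987 and 1.28 CPM in R158, 1.13, 1.43 and 1.33 CPM in R323, and 2.56, 0.912 and 1.41 CPM in WT, against 1.31, 0.655 and 0.429 CPM in EV. Of the 12 MYC libraries, 8 lay above all EV libraries and 0 below them. The R149 libraries lay above EV without overlap, as did 26.4% of all genes. Each of the other MYC lines had at least 1 library below EV replicate 1.

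Egr1 averaged 2.1 ± 0.863 CPM in R149, against 0.799 ± 0.459 CPM in EV (SD, n = 3). The log2 fold change was 1.39 ± 0.45 (2.63-fold), with an edgeR adjusted p of 0.0231. In R158, R323 and WT it was 0.77 ± 0.48, 0.72 ± 0.47 and 1.05 ± 0.46, with adjusted p of 0.244, 0.266 and 0.103. The 95% intervals were wide, from -0.25 to 1.79 in R158, -0.27 to 1.72 in R323 and 0.08 to 2.02 in WT, so a 2-fold rise lies inside each of them. The R149 call was lost without R149 replicate 1 (log2 fold change 1.01, adjusted p 0.089), EV replicate 2 (1.24, 0.0959) or EV replicate 3 (1.12, 0.102). With replicates 2 and 3 alone, Egr1 was called in R158 (0.91, adjusted p 0.0467), R323 (1.24, 0.008) and WT (0.94, 0.0369). WT was also called without EV replicate 1 (1.53, 0.038) and with the replicate block, which included EV (0.998, 0.0338). Without WT replicate 1 the WT value was 0.54 (adjusted p 0.462). Without EV replicate 3 the log2 fold change was 0.50 in R158 (0.54) and 0.46 in R323 (0.558), and without R158 replicate 1 it was 0.50 in R158 (0.535).

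Atf3, a zipper protein that is induced by cell stress and often acts as a repressor, was higher in each MYC line. The libraries held 10.3, 10.5 and 10.2 CPM in R149, 7.07, 7.05 and 5.87 CPM in R158, 8.34, 6.67 and 5.97 CPM in R323, and 9.55, 8.10 and 7.03 CPM in WT, against 4.44, 2.80 and 4.08 CPM in EV. All 12 MYC libraries were above all EV libraries. The R149 cultures were the highest and lay within 1.03-fold of each other.

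Mean Atf3 was 10.3 ± 0.167 CPM in R149, 6.66 ± 0.688 in R158, 7.0 ± 1.22 in R323 and 8.23 ± 1.26 in WT, against 3.77 ± 0.865 in EV (SD, n = 3). The log2 fold changes were 1.48 ± 0.19 in R149 (edgeR adjusted p 4.1e-05), 0.84 ± 0.20 in R158 (0.006), 0.91 ± 0.19 in R323 (0.00272) and 1.15 ± 0.19 in WT (0.000611). These are rises of 2.78-fold, 1.79-fold, 1.88-fold and 2.22-fold, and changes this high or higher were found in 1.24%, 4.42%, 3.9% and 2.31% of all genes. Each of the 4 calls held in all 22 alternatives, where the highest adjusted p was 0.0369, for R158.

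**Figure D2:**
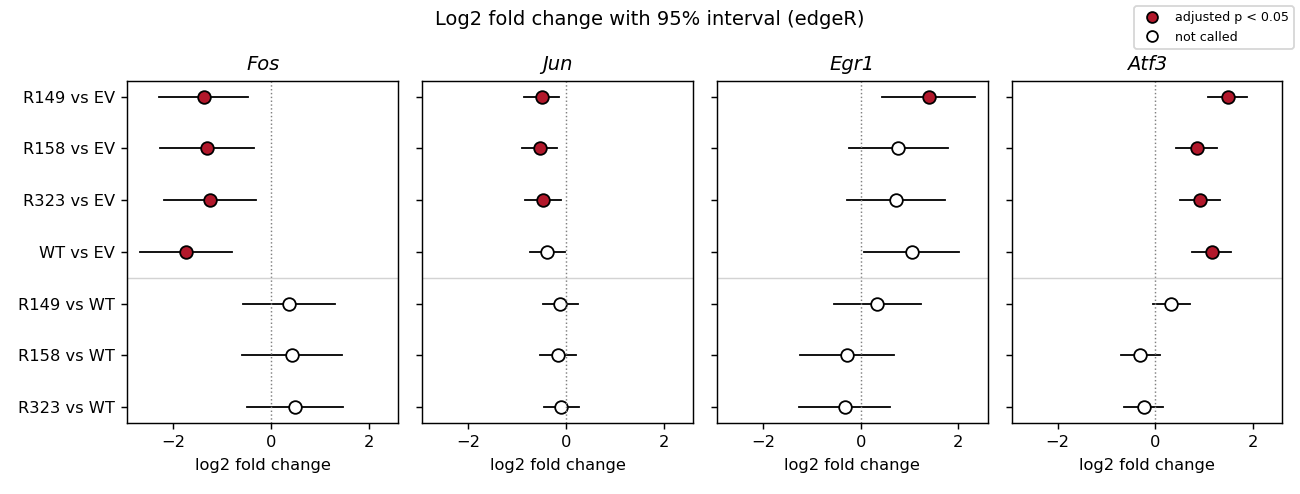
Log2 fold change (x axis) of each gene in 7 comparisons (rows, 4 against EV above the line and 3 against WT below it), with 95% intervals from the edgeR fit and filled points for adjusted p below 0.05. Fos and Atf3 were called in all 4 comparisons with EV, and no gene was called against WT.

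**Figure D3:**
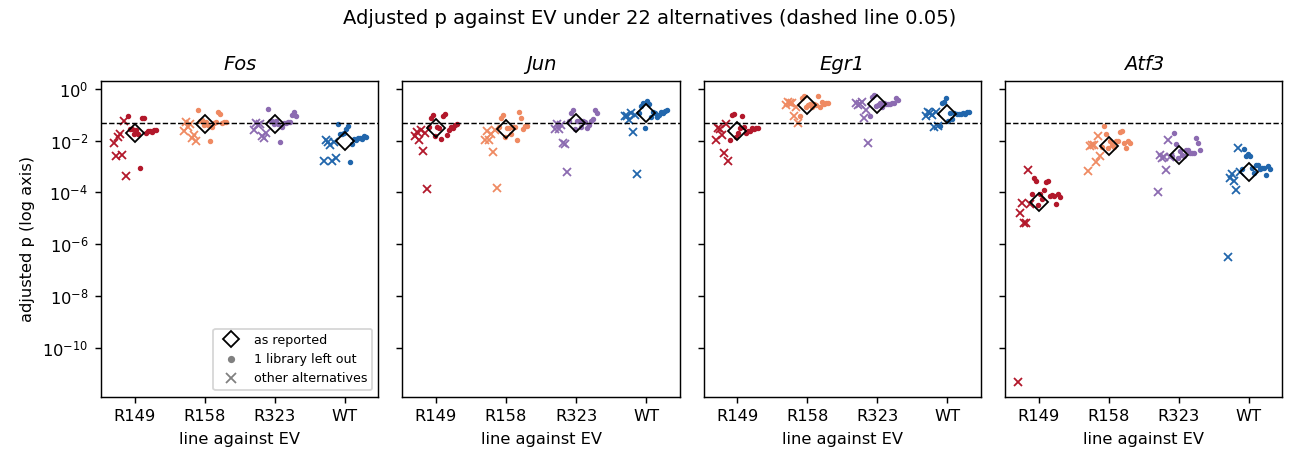
Adjusted p (log axis) of each gene in the 4 comparisons with EV, as reported (diamonds), with 1 library left out (dots) and under other alternatives (crosses). Atf3 stayed below 0.05 (dashed line) in each line, while Fos in R158 and R323 and Jun in R323 lay near it.

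The ratio of raw counts of 2 genes in the same library needs no scaling. Apart from counting error, it moves only where the genes change unequally. It was chosen after the levels had been seen and is given as a description with no test. Fos counts relative to Atf3 counts were 0.148, 0.0415 and 0.0624 in R149, 0.167, 0.11 and 0.129 in R158, 0.108, 0.131 and 0.167 in R323, and 0.0855, 0.0909 and 0.0545 in WT, against 0.716, 0.633 and 0.421 in EV. The highest of the 12 MYC ratios, 0.167, was below the lowest EV ratio, 0.421. This separation follows from the levels, since all 12 MYC libraries lay below EV for Fos and above it for Atf3, and adds nothing to them. Egr1 counts relative to Fos counts separated the groups as well, with a lowest MYC ratio of 1.24 (median 1.66, highest 4), against 0.25, 0.37 and 0.413 in EV. Fos relative to Jun overlapped, at 0.0092 to 0.0297 in the MYC libraries, against 0.0265 to 0.0578 in EV. The overlap was R149 replicate 1 alone, since the highest ratio of the other 11 MYC libraries was 0.0228.

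**Figure D4:**
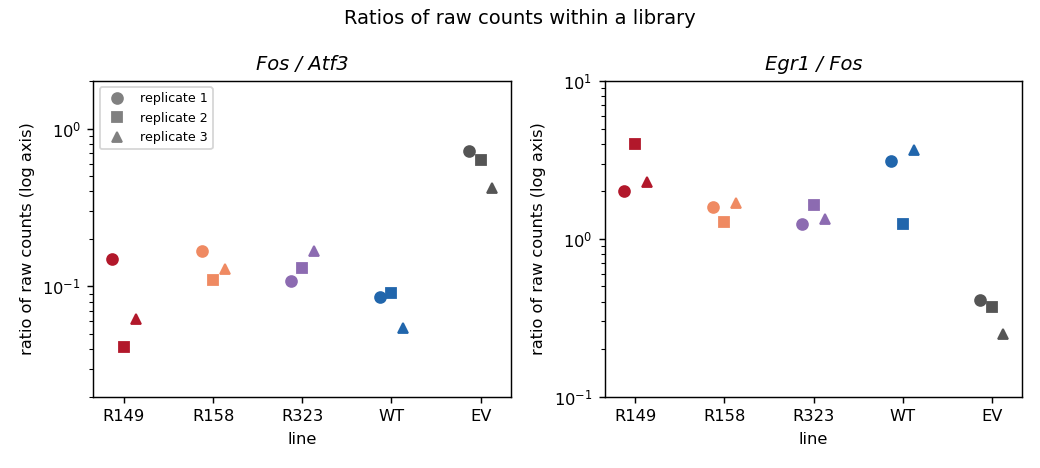
Ratios of raw counts within each library on log axes, Fos over Atf3 on the left and Egr1 over Fos on the right, with symbols for replicate numbers. The EV libraries lie above the MYC libraries for Fos over Atf3 (0.421 or more, against 0.167 or less in MYC libraries) and below them for Egr1 over Fos.

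The comparisons with WT set each mutant line beside the line with unchanged MYC. With 1 line per construct they cannot separate the substituted lysine from the line. None of them was called in R149, R158 or R323 against WT, where 1.18%, 0.6% and 0.892% of all genes were called. Without adjustment over genes, edgeR and DESeq2 gave none of the genes a p below 0.05 in these comparisons. With limma-voom, Atf3 in R149 had an unadjusted p of 0.0489 and was not called after adjustment. Libraries of equal number deviated together among the MYC lines. With that number as a block, Atf3 in R149 had an unadjusted p of 0.042 and an adjusted p of 0.269. The block changed 0 of the calls against WT.

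The lowest p belonged to Atf3 in R149, at 10.3 ± 0.167 CPM, against 8.23 ± 1.26 CPM in WT (SD, n = 3). The libraries did not overlap, as for 7.58% of all genes in that direction, and the log2 difference was 0.33, with a 95% interval of -0.06 to 0.71 and an edgeR adjusted p of 0.543. Atf3 in R158 and R323 differed from WT by -0.31 (-0.70 to 0.09) and -0.24 (-0.63 to 0.15). Jun was bounded most tightly, with differences of -0.12 (-0.47 to 0.24) in R149, -0.16 (-0.52 to 0.20) in R158 and -0.09 (-0.45 to 0.27) in R323.

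For Fos and Egr1 the intervals were wide. Fos differed from WT by 0.36 (-0.59 to 1.31) in R149, 0.43 (-0.59 to 1.44) in R158 and 0.49 (-0.50 to 1.47) in R323. The R323 libraries of Fos lay above all WT libraries, as for 6.95% of genes, without a call (edgeR adjusted p 0.972). Egr1 differed by 0.34 (-0.54 to 1.23), -0.28 (-1.23 to 0.67) and -0.33 (-1.26 to 0.60) in these lines. In this fit, without the replicate block, a 2-fold rise lies inside the interval of Fos in each mutant. For Egr1 a 2-fold rise lies inside it in R149 and a 2-fold fall in R158 and R323. With the block, a 2-fold rise stayed inside for Fos (upper limits 1.08, 1.29 and 1.36 in R149, R158 and R323) and for Egr1 in R149 (-0.27 to 1.04). The block intervals of Egr1 were -0.92 to 0.52 in R158 and -0.87 to 0.54 in R323, and a 2-fold fall lay outside both.

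By mean level, the lines ran EV, R323, R158, R149, WT for Fos from high to low, and EV, WT, R323, R149, R158 for Jun. For Egr1 the order was R149, WT, R158, R323, EV, and for Atf3 it was R149, WT, R323, R158, EV. Between neighbours in these orders, the edgeR test called the step from R323 to EV for Fos (adjusted p 0.0433) and from R158 to EV for Atf3 (0.006), and no other. No pair of neighbouring MYC lines was called for any of the 4 genes, R158 against R323 included, where 0.936% of all genes were called. R149, the highest line for Atf3, differed from R158 by 0.63 ± 0.19 and from R323 by 0.57 ± 0.18 on the log2 scale without overlap of libraries, with edgeR adjusted p of 0.149 and 0.232, where 1.27% and 1.07% of all genes were called and 5.35% and 9.94% were higher without overlap. With the replicate block these became 0.0482 against R158 and 0.0767 against R323. DESeq2 gave 0.0431 against R158, and replicates 2 and 3 alone gave 0.0455 and 0.0356. For Egr1, R149 differed from R158 by 0.62 ± 0.44 (adjusted p 0.742) and from R323 by 0.67 ± 0.43 (0.57), without overlap in the comparison with R323. Without R149 replicate 1 these differences were 0.26 (0.953) and 0.28 (0.856).

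The spread between cultures of a line differed from gene to gene. The biological coefficient of variation fitted by edgeR was 33.9% for Fos and 34.6% for Egr1, higher than or equal to that of 90% and 90.5% of the 13676 genes. For Jun and Atf3 it was 14.9% and 15.3%, near the middle of all genes (53% and 55.4%). This figure is meant to leave out counting error, but ranks by it differed with abundance. Among the 1000 genes nearest in abundance Fos stood at 66.8%, Egr1 at 76.2%, Jun at 81.6% and Atf3 at 34%. Jun thus varied more between cultures than most genes of its abundance, and Atf3 less.

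Within a line, Fos varied most in R149, where the coefficient of variation of CPM was 67% and counting error alone gives 15.3%, and the highest culture stood 3.5-fold above the lowest. That culture was R149 replicate 1, and the other R149 cultures, at 0.637 and 0.437 CPM, lay 1.46-fold apart. It varied least in R323, at 6.87%, below the 21.9% of counting error. In EV, Fos varied by 37.3% and Egr1 by 57.4%, with counting errors of 13.8% and 22.9%. Egr1 varied by 41.1% in R149, 33.1% in R158, 11.8% in R323 and 51.9% in WT, and the R323 value was below the 18.5% of counting error. Jun varied by 17.3% in R149, 21.7% in R158, 6.82% in R323 and 21.2% in WT, against 8.18% in EV, each above a counting error of at most 3.71%. Atf3 ranged from 1.62% in R149 to 22.9% in EV. The R149 value was below the 4.42% that counting error alone gives, so its closeness does not show uniform cultures. A difference in spread between lines was not tested.

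The high culture was often the one numbered 1. Replicate 1 was the highest in 16 of 20 combinations of gene and line, and in 4 of 5 lines for each gene. Among all genes, 39.8% of such combinations had replicate 1 highest and 21.9% of genes had it highest in at least 4 lines. For Fos and Atf3 the exceptions were R323 and R149, for Jun it was EV, and for Egr1 it was R323. The labels tie no number to a day or batch, and the part of a batch in this pattern was not tested.

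**Figure D5:**
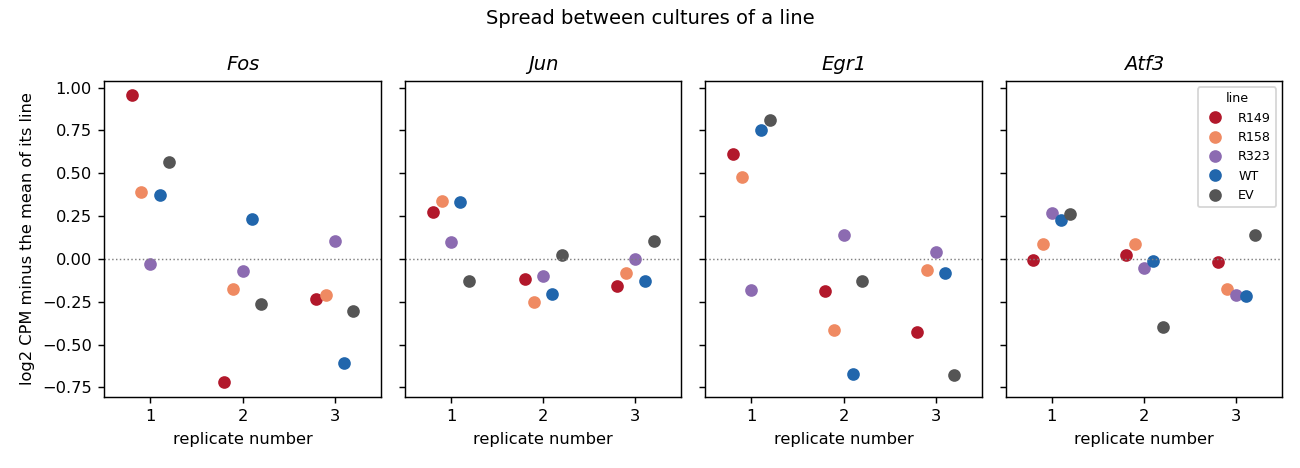
Log2 CPM of each library minus the mean of its line (y axis) by replicate number (x axis), with colours for lines. Replicate 1 is the highest culture in 16 of 20 combinations of gene and line, and the points of Fos and Egr1 spread more widely than those of Jun and Atf3.

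Across the 12 MYC libraries, the log2 levels of Jun and Egr1 were correlated (Pearson r = 0.741, permutation p = 0.00575, adjusted over 6 pairs of genes 0.0345), but by rank the relation was weaker (Spearman rho = 0.538, permutation p = 0.0755, adjusted 0.2). Without WT replicate 1 and R158 replicate 1, the libraries farthest from the median of Jun, r was 0.624, and over the 8 libraries numbered 2 and 3 it was 0.371, so the relation rested largely on the replicate 1 libraries. Fos and Jun, the AP-1 partners, gave r = 0.517 (permutation p = 0.0837) and rho = 0.622 (permutation p = 0.0347), with adjusted values of 0.188 and 0.2, and r = -0.0071 over the libraries numbered 2 and 3. In the 4 other pairs r lay between -0.0699 and 0.506, and no permutation p was below 0.0941. Some of these values moved with the libraries used. Fos and Atf3 gave r = -0.0699, which was -0.634 without WT replicate 3 and R149 replicate 1 and -0.542 over the libraries numbered 2 and 3. Fos and Egr1 gave 0.359, which was 0.00505 and -0.441 in the same subsets. Egr1 and Atf3 gave 0.506, which was 0.178 without R149 replicate 1 and WT replicate 1. Jun and Atf3 gave 0.262, which was -0.27 over the libraries numbered 2 and 3. The permutations treat the libraries as exchangeable, although they come from 4 lines with shared replicate numbers.

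Among the 12023 other genes with a mean of at least 1 CPM, the profile most like that of Fos over the 15 libraries was that of ENSRNOG00000006931, which has no name in the sources used here (Pearson r = 0.89, Spearman rho = 0.832). It averaged 1.28 CPM in R149, 1.37 in R158, 1.25 in R323 and 0.688 in WT, against 3.19 CPM in EV. The profile most like that of Atf3 was that of ENSRNOG00000051771 (r = 0.947, rho = 0.864), at 51.6, 46.8, 49.6 and 49.4 CPM in R149, R158, R323 and WT, against 39.5 CPM in EV. The highest r was 0.939 for Jun and 0.902 for Egr1. Of the 4 genes themselves, Jun stood nearest to Fos (r = 0.712, a value reached by 2.64% of genes) and Egr1 nearest to Atf3 (r = 0.714, reached by 11.2%). These values follow in part from the shared difference between MYC lines and EV. With line means taken off, Egr1 and not Jun stood nearest to Fos (r = 0.656, reached by 8.19% of genes). Jun gave 0.523 with Fos (reached by 16.7%), and r of Egr1 with Atf3 was 0.248 (reached by 34.1%). On that measure the 3 closest genes of each reached r of 0.921 to 0.944 for Fos, 0.963 to 0.977 for Jun, 0.945 to 0.949 for Egr1 and 0.853 to 0.91 for Atf3.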

How the data were processed

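The deposited values were raw counts per Ensembl gene, 1 table per library, with no normalization by the authors. Per the submitters' processing notes, TopHat2 2.1.0 and rat build Rnor_6.0 were used. How reads were counted, and whether by strand, is not stated, so overlapping genes are uncertain. The tables held 0 rows that name no gene. Identifiers carried no symbols and the reference table paired 0 of them, so the names of the 4 genes come with their fixed list. The planned lists of other response genes, the cell type markers and the introduced MYC could not be read. The members and lists were chosen with earlier results of these data known. Named genes are the 4 members and, for likeness, the identifiers with the highest Pearson correlation to Fos and to Atf3.

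All 15 libraries were fitted with edgeR 4.0.16 in R 4.3.3 (filterByExpr with a minimum of 10 counts, TMM, quasi-likelihood test, line as the only term), adjusted over 13676 genes. The SE is the absolute log2 fold change over the square root of F, and log2 CPM used a prior count of 2. Correlations used 100000 two-sided permutations. Replicates of a line differed by more than counting noise (chi-square per degree of freedom 4.24 to 81.8). Same-numbered libraries deviated together in every pair of MYC lines (r from 0.127 to 0.54, above the 0.1 set). Against EV, r ran from 0.00523 to 0.208 with at least 1 value below 0.1 in each comparison, so numbers were taken to pair MYC lines only. WT missed that limit narrowly (0.15, 0.0986 and 0.208), and R158 gave 0.0843, 0.164 and 0.176. A weak pairing with EV therefore remains possible in these lines. The replicate block gave EV and the MYC lines a common effect per number, so it also assumed pairing with EV. Alternatives were DESeq2 1.42.0, limma-voom 3.58.1, library size alone, no filter, the replicate block, only the 2 lines compared, replicates 2 and 3 alone, and each library left out.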

Additional observations from a re-analysis of the deposited data

How the results depend on the processing

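Over 22 alternatives, the direction against EV was the same for each of the 4 genes in each line. Without 1 library, the number of the 4 genes called against EV was 2 to 4 for R149, 1 to 3 for R158, 1 to 3 for R323 and 2 to 3 for WT, and it was 0 for each mutant against WT. These fits tested 13701 to 13965 genes. Against EV they called 3872 to 5577 of all genes for R149 and 2108 to 4436 for R158. For R323 they called 2913 to 4638 and for WT 2399 to 4228. Against WT they called 76 to 356 for R149, 19 to 206 for R158 and 61 to 242 for R323. With the replicate block, which included EV, and with replicates 2 and 3 alone, 4 genes were called for WT against EV in place of 2. Calls over all genes in that comparison rose as well, from 3661 of 13676 to 4984 of 13676 with the block and 5151 of 13798 with replicates 2 and 3. The block changed no other count of the 4 genes in the comparisons with EV or WT. Between mutants, the block also called Atf3 in R149 against R158 (adjusted p 0.0482). Against WT, where nothing was called, log2 differences turned in sign. Without 1 library they spanned -0.278 (without R149 replicate 1) to 0.664 for Fos, -0.279 to 0.0607 (without WT replicate 1) for Jun and -0.0483 (without R149 replicate 1) to 0.842 for Egr1 in R149. Without WT replicate 1, Jun and Egr1 turned in R158 (0.0155 and 0.219, with lowest values of -0.357 and -0.583) and in R323 (0.0987 and 0.186, with lowest values of -0.187 and -0.616). With replicates 2 and 3 alone, Fos turned in R149 (-0.0561) and Jun and Egr1 turned in R323 (0.0411 and 0.291). The cause was not tested. Counts of 9 to 81 for Fos and 8 to 157 for Egr1 limit what these genes can show.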
